A study of Pinus pinaster with 24 samples.

Results

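The 200 transcripts described here are those whose level varied least over the whole experiment, among the transcripts of middling abundance in the root tip of a conifer, the maritime pine Pinus pinaster. They were chosen by a rule on the measured values themselves. All transcripts with a mean of 10 to 100 CPM over the 24 libraries were ranked by the standard deviation (SD) of log2(CPM + 0.5) over those libraries, and the first 200 were taken. CPM is the name the authors gave to their scaled read counts. The window of 10 to 100 CPM held 13728 of the 51211 deposited transcripts, so the 200 make up 1.46% of it. Since the rule used every library, every level and every difference between libraries given below is a description of how these transcripts were picked out, unless it was measured in libraries the choice did not use.

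The libraries came from seedlings of 1 month and of the Spanish provenance Sierra Segura y Alcaraz. Roots were sampled 2 h after 80 mL of either 3 mM potassium nitrate (labelled NO3K) or 3 mM KCl, and all plants of both groups had first spent 3 days on nutrients that lacked nitrogen. Laser microdissection of frozen sections of 30 µm gave 4 areas, approximate per the labels: root cap, meristem, developing cortex and the area of developing vessels, called the vascular area here. There were 3 libraries for each area and solution. The number of seedlings behind a library is not stated, nor whether experiments 1 to 3 were separate cultures, so errors measure only the spread between these libraries. The reads recovered from the table came to 45262154 to 51517525 per library, and every transcript of the 200 rests on a mean of 498 to 4793 reads per library, with a median of 1213. The IDs carried no gene names in the sources used here (0 of 51211), so neither the identity of the areas nor the function of a transcript could be checked against known genes.

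Transcripts with steady levels matter in plant expression studies because they serve as internal standards: a target is expressed relative to them when the amount of RNA differs between samples. The textbook choices encode parts of the cytoskeleton, the translation machinery or ubiquitin turnover, and such choices have to be checked in each tissue. A root tip is a hard case, since it joins dividing cells of the meristem, the secreting and shed cells of the cap, expanding cortex cells and cells that differentiate into conducting tissue.

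The 200 transcripts spanned SDs of 0.0987 to 0.168 on the log2 scale, with a median of 0.15. All transcripts of the window spanned 0.0987 to 4.13, with a median of 0.676, and 1 in 100 of them lay below 0.158. For each of the 200, the highest of the 24 values was less than 2 times the lowest, with ratios of 1.28 to 1.8 and a median of 1.5. In the whole window 1206 transcripts (8.78%) kept within this limit. A ratio below 1.5 was rarer, with 97 of the 200 and 101 of the window.

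The limit between chosen and not chosen falls in a continuum. The last transcript inside, pp_223522, had an SD of 0.16791 around a mean of 24.2 CPM, and pp_79128 before it had the same SD to 3 digits around 10.3 CPM. The first outside, pp_233763, had an SD of 0.16792 around 27.3 CPM, and pp_179079 after it had 0.168 around 18.2 CPM. Nothing in these values sets the inner pair apart from the outer pair.

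**Figure D1:**
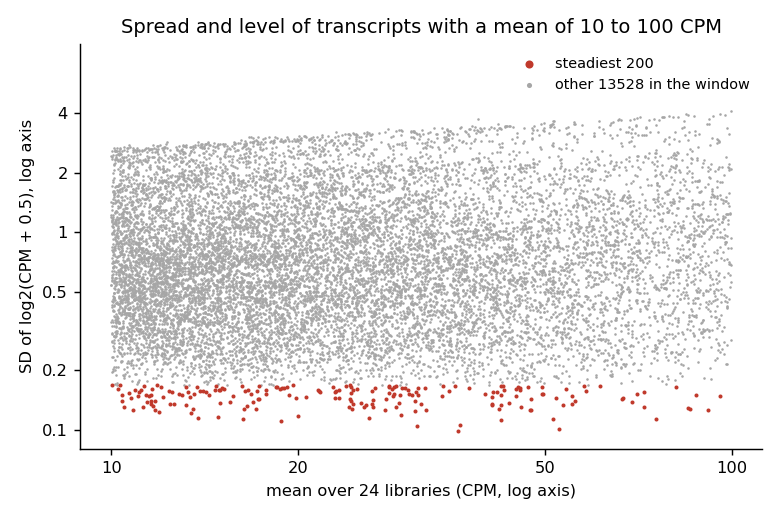
The SD of log2(CPM + 0.5) over 24 libraries (y axis, log axis) is plotted against the mean level in CPM (x axis, log axis) for the 200 steadiest transcripts (red) and all other transcripts of the window (grey). The red points fill the lower edge of the cloud from 10 to 100 CPM, at SDs of 0.0987 to 0.168, with no gap above them.

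Steady transcripts occurred over the whole range of levels. The 200 had a median mean of 24.4 CPM and the window 21.4 CPM. Of the 200, 83 had a mean of 10 to 20 CPM (41.5%, against 46.3% of the window), 66 of 20 to 40 CPM (33%, against 31.7%) and 51 of 40 to 100 CPM (25.5%, against 22%). The most abundant was pp_129815 with 95.9 CPM and the least abundant pp_245996 with 10 CPM. In sum the 200 held 5505 to 6027 CPM in a library, which was 0.503% to 0.736% of its total. The reads limit how small an SD can be measured: counting error alone would give a median SD of 0.0409 at these depths, and its share in the variance of the 200 had a median of 8.16% (range 1.89% to 22.6%). The libraries were amplified without molecular identifiers, so this share covers counting error only.

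The steadiest transcript of the window was pp_161023, with a mean of 36.2 CPM and an SD of 0.0987. The root cap had 34.9, 32.5 and 33.3 CPM with nitrate, against 36.2, 42.4 and 37.8 CPM with KCl. In this area all nitrate values lay below all KCl values. The meristem had 35, 33.6 and 34 CPM with nitrate, against 36.2, 34.5 and 33 CPM with KCl. The cortex had 38.1, 38.7 and 36.6 CPM with nitrate, against 38.7, 38.8 and 37.2 CPM with KCl. The vascular area had 39.1, 40.1 and 34.8 CPM with nitrate, against 33.6, 35.2 and 35.3 CPM with KCl. The solutions overlapped everywhere but in the cap. The single highest value and the single lowest value, 42.4 and 32.5 CPM, both came from the cap.

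The second steadiest carries the neighbouring ID, pp_161022, and had 52.7 CPM with an SD of 0.101. Its area means were 54.7 ± 2.44 CPM (cap), 49.7 ± 2.22 CPM (meristem), 55.6 ± 2.01 CPM (cortex) and 50.7 ± 4.11 CPM (vascular area; SD, n = 6 each). Its highest meristem value, 52.8 CPM, lay just below its lowest cortex value, 53 CPM, and all other pairs of areas overlapped. The fourth, pp_134958, had 36.6 CPM with an SD of 0.106, and its area means ran from 35 ± 1.65 CPM in the cap to 38.3 ± 2.79 CPM in the vascular area (SD, n = 6 each). All its areas overlapped.

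The third steadiest, pp_211722, had more of its spread between the solutions. It had 31.1 CPM with an SD of 0.104, and 51.4% of its sum of squares lay between the solutions, the highest share among the 200. With nitrate it had 29.8, 26.7 and 29.9 CPM in the cap and 29.3, 28.2 and 28.3 CPM in the meristem, against 29.7, 32.1 and 31.6 CPM and 33, 29.5 and 31.8 CPM with KCl. It had 31.6, 31.4 and 29 CPM in the cortex and 30.7, 29.2 and 29.3 CPM in the vascular area with nitrate, against 33.4, 35.9 and 34.2 CPM and 34.1, 33 and 33.6 CPM with KCl. The solutions overlapped in the cap only, and the means over all areas were 29.5 ± 1.38 CPM with nitrate and 32.7 ± 1.84 CPM with KCl (SD, n = 12 each). Areas of the same solution and experiment number deviated together, as described below, so the 12 libraries are not separate replicates. With 1 mean per solution and experiment number, nitrate minus KCl was -0.146 ± 0.073 (SE) on the log2 scale. Its adjusted p was 0.767 by limma on those means and 0.092 by limma on all libraries.

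**Figure D2:**
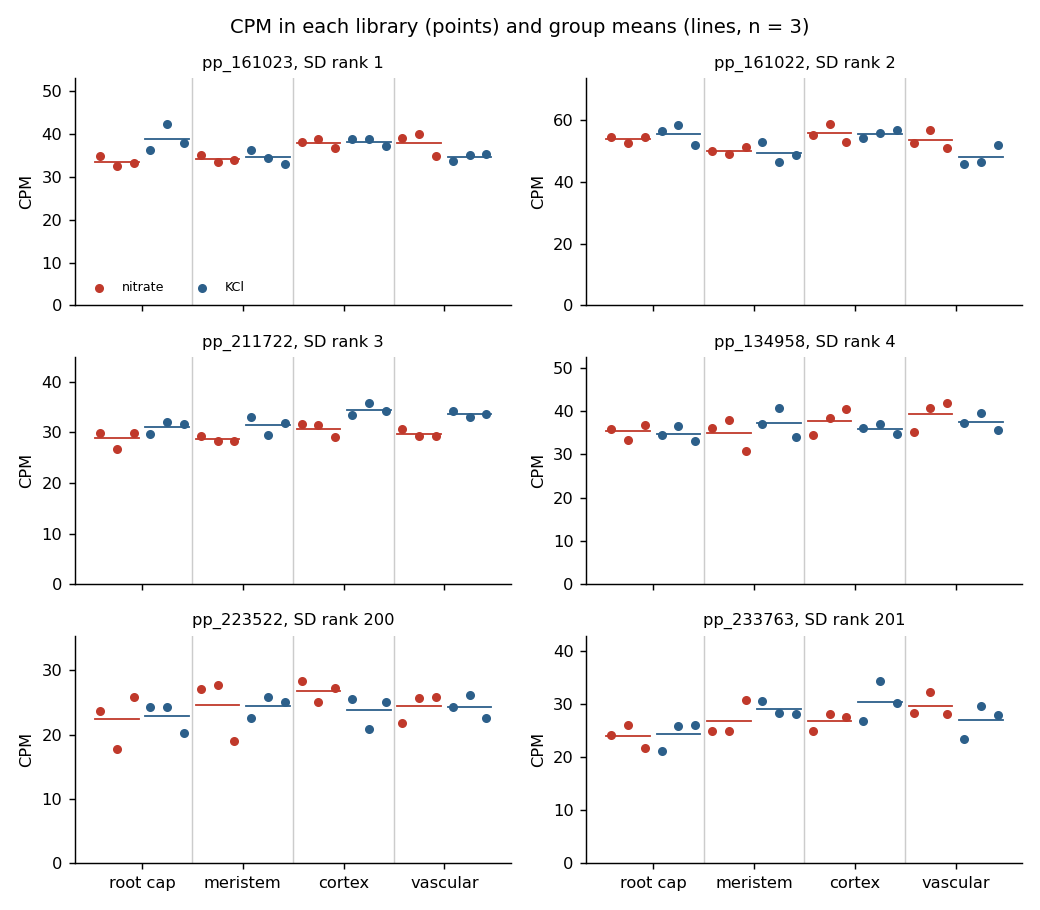
CPM (y axes, from 0) in each of the 24 libraries (points, red for nitrate and blue for KCl, 3 per area and solution) with group means (lines) for the steadiest 4 transcripts, the last one inside the limit and the first outside. The points of pp_161023 lie between 32.5 and 42.4 CPM, while those of pp_223522 lie between 17.8 and 28.3 CPM.

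The spread of each transcript was divided into parts that add up to its sum of squares: between areas, between solutions, the part by which solutions differ from area to area, between root-tip sets of the same solution, and the rest. A root-tip set is the name used here for the 4 libraries with the same solution and experiment number. The labels do not state that these libraries share root tips. They were grouped because they deviated together over all transcripts (Pearson's r of 0.278 to 0.694 in 36 of 36 pairs of libraries, across transcripts, which are not independent). The part between areas was the main difference. It held a median of 33.2% in the 200 and of 83.3% in the window, and it was the largest part in 90 of the 200 (45%) against 12488 of 13728 (91%). The rest was the largest part in 76 of the 200 (38%) against 458 of the window (3.34%). Root-tip sets held a median of 13.2% in the 200 and 4.14% in the window, and solutions 2.88% and 0.734%. A share has to be read beside the degrees of freedom, of which areas take 13%, solutions 4.35%, root-tip sets 17.4% and the rest 52.2%. Even in the 200, areas therefore held more than their degrees of freedom and the rest less. Their lower share of areas than in the window was set by the choice of low spread.

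**Figure D3:**
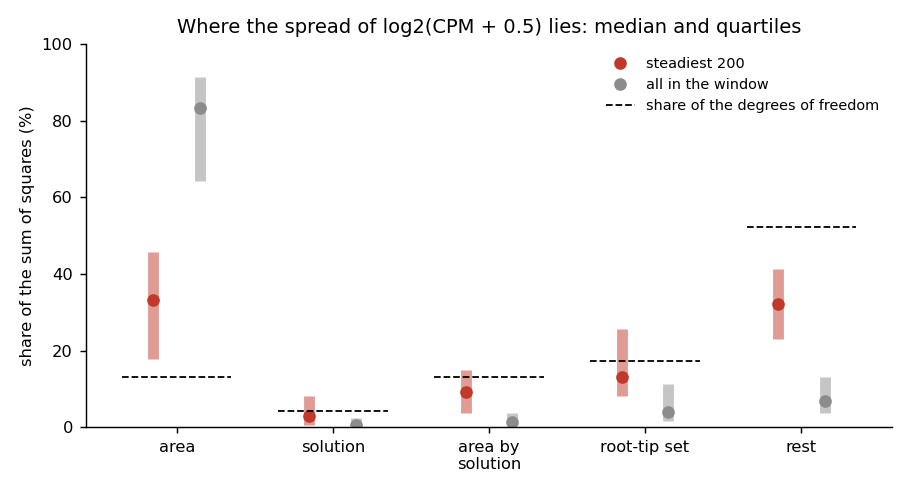
Share of the sum of squares of log2(CPM + 0.5) in percent (y axis) for 5 sources (x axis), as medians (points) and quartiles (bars) over the steadiest 200 (red) and all 13728 transcripts of the window (grey), with the share of the 23 degrees of freedom (dashed lines). Areas hold a median of 33.2% in the 200 against 83.3% in the window, and the rest holds 32.3% against 6.8%.

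The spread that the rule kept low was foremost the one between areas, which held most of it in the window. The smaller gaps and SDs than in the window follow from that choice. The gap between the highest and the lowest area mean was 0.0488 to 0.385 on the log2 scale in the 200, with a median of 0.199, against a median of 1.48 in the window. The libraries of the same area and solution differed by a pooled SD of 0.123 in the median of the 200, against 0.276 in the window. Within areas the 200 were least steady in the root cap, with a median SD of 0.141 over its 6 libraries, while the meristem had 0.112, the cortex 0.114 and the vascular area 0.106. The window showed the same lead of the cap, at 0.332 compared with 0.201 to 0.24 elsewhere. The nitrate cap library of experiment 2 held the lowest value of 37 of the 200 (18.5%, against 11.5% of the window). The KCl cap library of experiment 3 held the highest of 27 (13.5%, against 14.6% of the window). These are tissue areas, in which fewer cells of a type and less RNA per cell cannot be told apart.

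Some of the 200, named for gaps or leads between areas or by rank, show what difference between areas the limit still admitted. The widest gap belonged to pp_86819, which had 42.7 ± 2.62 CPM (cap), 49.2 ± 3.85 CPM (meristem), 50.1 ± 3.34 CPM (cortex) and 55.9 ± 2.63 CPM (vascular area; SD, n = 6 each). Its highest cap value, 45.9 CPM, stayed below its lowest vascular value, 51.4 CPM. The transcript pp_195681 had the largest lead of the cap: 47.7, 48.7 and 44.5 CPM with nitrate and 54.4, 51.6 and 55.4 CPM with KCl, while its mean was 39.5 ± 2.03 CPM (meristem), 40.9 ± 0.839 CPM (cortex) and 41.4 ± 2.59 CPM (vascular area; SD, n = 6 each). Its lowest cap value, 44.5 CPM, was passed by only 1 value of another area, 44.6 CPM in the vascular area. Areas held 75.4% of its spread, the most among the 200. Its difference between the cap and the other areas was 0.31 as deposited but 0.066 with equal column totals on the log2 scale. For the cortex it was pp_64563, with 20.6 ± 1.19 CPM there against 17.4 ± 1.76 CPM (cap), 16.1 ± 0.592 CPM (meristem) and 17 ± 0.84 CPM (vascular area; SD, n = 6 each). Its lowest cortex value, 19.1 CPM, was above all meristem and vascular values but not above the cap, which reached 19.2 CPM. For the meristem it was pp_79128, with 11.7 ± 1.27 CPM there against 9.76 to 10 CPM as the means of the other areas. The transcript pp_194368, at the middle of the ranking, had 35.5 ± 2.13 CPM in the cap and 27.9 ± 1.63 CPM in the vascular area (SD, n = 6 each) and an SD of 0.15 over all libraries. Its cap and vascular values did not overlap.

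In the fit across all 51044 transcripts that reached 1 CPM in at least 3 libraries, which uses limma on log2(CPM + 0.5) and the Benjamini-Hochberg adjustment, a call means an adjusted p below 0.05. Of the 200, 65 were called for a difference between areas, where 86.7% of all transcripts tested were called. Against the mean of the other areas, the cap had 56 calls (79.3% of all), the meristem 32 (62.3%), the cortex 20 (42.9%) and the vascular area 22 (61.7%). The rule favours transcripts without such differences, so nothing is read from these counts. The fit shares information on the spread over transcripts of like level, which gave the 200 a median SD of 0.151 within groups in place of their own 0.123. The meristem count became 18 without KCl replicate 2, 15 without KCl replicate 3 and 20 without nitrate replicate 3 of the meristem. Calls over all transcripts were 28654, 29404 and 30656 there, in place of 31803. The cortex count became 11 without KCl replicate 2, 9 without KCl replicate 3 and 12 without nitrate replicate 2 or nitrate replicate 3 of the cortex. Calls over all transcripts were 19834, 18867, 19169 and 19766 in the same order, in place of 21903. The vascular count became 12 without nitrate replicate 3 of that area, where 29538 of all transcripts were called, in place of 31495.

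Which area was highest or lowest among the 200 depended on the scaling and cannot be settled from these files. As deposited, the cap was the highest area for 62 of the 200 (31%, against 41.4% of the window). It was the lowest for 68 (34%, against 44.7% of the window). With columns scaled to equal totals (plain CPM) it was highest for 3 and lowest for 176, with median-of-ratios scaling highest for 120 and lowest for 20, and with quantile normalization highest for 8 and lowest for 132. The meristem was highest for 43 as deposited (21.5%, against 20.6% of the window). It was highest for 130 with equal totals, 14 with median-of-ratios scaling and 63 with quantile normalization. The window was counted as deposited only. The median difference between the cap and the other areas over all transcripts tested was -0.0888 as deposited and -0.282 with equal totals on the log2 scale, and for the meristem it was 0.043 and 0.202.

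The directions of the calls changed with the scaling as well. In the cap, limma called 24 of the 200 higher and 32 lower as deposited (38.3% and 41.1% of all transcripts tested). With equal totals it was 0 and 127 (32.9% and 46.5% of all), with median-of-ratios scaling 88 and 1 (41.1% and 38%), and with quantile normalization 4 and 92 (36.7% and 41.7%). The count test of edgeR, on recovered reads with its own TMM scaling, called 43 higher and 17 lower (40.1% and 38.2% of all). The cap thus had mostly higher calls, mostly lower calls or a mixture, depending on the scaling.

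In the meristem the calls were 12 higher and 20 lower as deposited (32.5% and 29.8% of all). They were 87 and 0 with equal totals (41% and 23.1%), 2 and 47 with median-of-ratios scaling (29.2% and 32.4%), 45 and 0 with quantile normalization (34.2% and 27.5%), and 7 and 27 by edgeR (32.2% and 24.9%). In the cortex they were 18 higher and 2 lower as deposited (24.4% and 18.5%). With equal totals they were 11 and 1 (11870 and 9042 of all transcripts tested), and by edgeR 13 and 2 (13862 and 7040 of all). They were 4 and 12 with median-of-ratios scaling (21.3% and 20.9%) and 6 and 11 with quantile normalization (21.7% and 21.5%). The vascular area had 7 higher and 15 lower as deposited (31.9% and 29.8%), and 5 and 15 with median-of-ratios scaling (16064 and 15448 of all). It had 16 and 3 with equal totals (34% and 27.2%), 57 and 0 with quantile normalization (35% and 27.4%), and 4 and 19 by edgeR (31.6% and 27.4%). No area kept a direction under all of these settings.

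The shared offset of the 200 in each library moved with the scaling too. As deposited, the median deviation of the 200 from their own means lay between -0.0784 and 0.049 on the log2 scale in the 24 libraries, and the 4 areas overlapped. With equal totals it lay between -0.236 and -0.0983 in the cap and between 0.0447 and 0.295 in the meristem, so all cap libraries were below all meristem libraries. With median-of-ratios scaling it was -0.0288 to 0.193 in the cap and -0.0848 to -0.0187 in the meristem. With quantile normalization the cap, at -0.156 to -0.0877, lay below every library of the other areas, of which the cortex came down to -0.0668. The median SD of the 200 was 0.15 as deposited, 0.201 with equal totals, 0.159 with median-of-ratios scaling and 0.166 with quantile normalization, against 0.673 to 0.686 for the window under all of these. The rule chose low SDs in these same libraries, and a scaling moves transcripts of like level in a library alike, so the gap to the window was set by the choice.

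**Figure D4:**
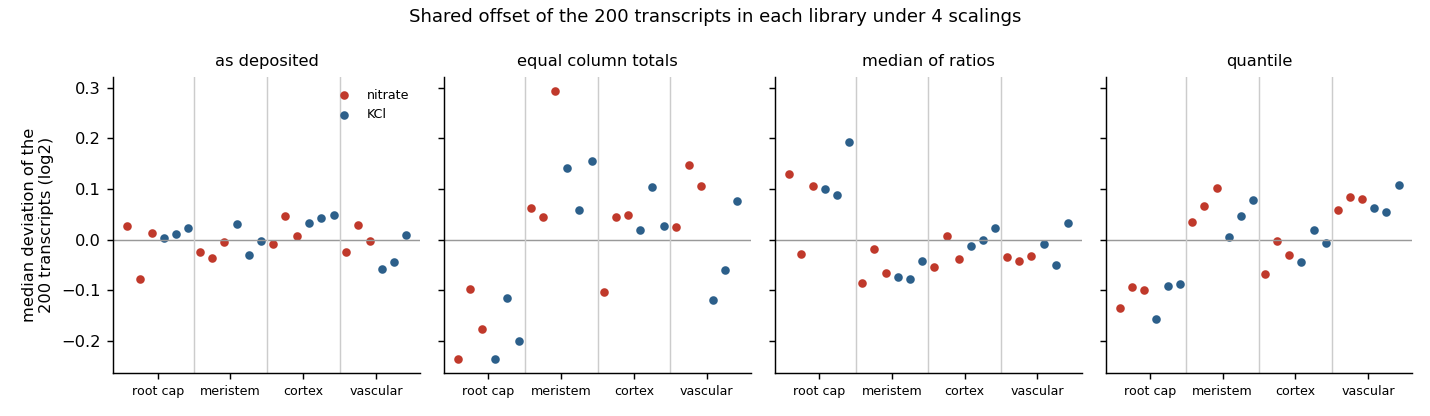
Median deviation of the 200 transcripts from their own means (y axis, log2) in each library (points along the x axis, by area, red for nitrate and blue for KCl) under 4 scalings. As deposited the points lie between -0.0784 and 0.049, while with equal column totals the cap lies at -0.236 to -0.0983 and the meristem at 0.0447 to 0.295.

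The list itself depended on the scaling more than on any single library. The same rule kept 70 of the 200 (35%) with equal totals, 138 (69%) with median-of-ratios scaling and 106 (53%) with quantile normalization. Leaving out any single library kept 173 to 194. Both lists always held 200 transcripts, so these are shares of each. The root cap mattered most among the areas: without its 6 libraries only 49 of the 200 (24.5%) were chosen again, while 141 were chosen again without the meristem, 155 without the cortex and 149 without the vascular area. Over the remaining 18 libraries, 1482 transcripts (11.6% of the window there) had an SD at or below 0.168 when the cap was left out, compared with 209 to 243 when another area was left out. The 200 themselves kept a median SD of 0.134 without the cap, and 190 of them stayed at or below 0.168. Their median rank became 471, since many other transcripts had SDs as low over the other areas.

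**Figure D5:**
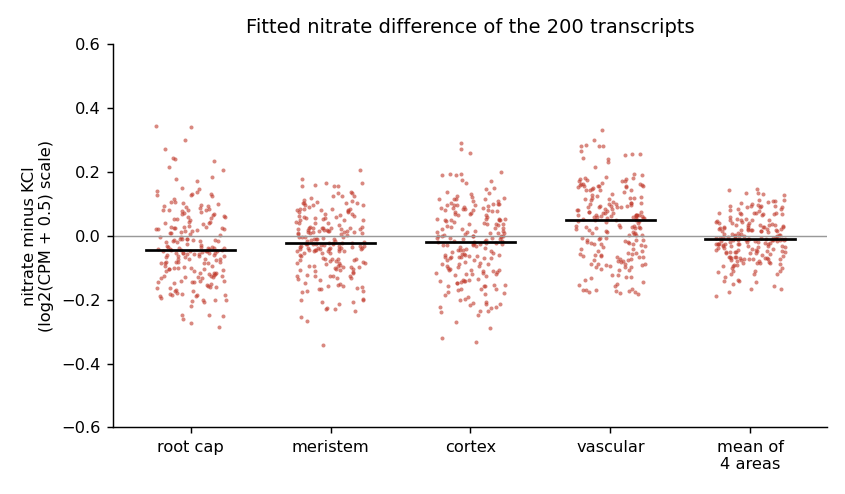
Fitted difference nitrate minus KCl (y axis, log2(CPM + 0.5) scale) of each of the 200 transcripts (points) in the 4 areas and over their mean (x axis), with the median (line). All points lie between -0.341 and 0.343, and the medians between -0.0441 in the cap and 0.0491 in the vascular area.

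Nitrate minus KCl differences of the 200 were small in every area, as the rule requires. On the log2 scale the lowest was -0.285 and the highest 0.343 in the cap, and the meristem had -0.341 and 0.206, the cortex -0.334 and 0.29, and the vascular area -0.182 and 0.331. The median size lay between 0.0689 in the meristem and 0.089 in the vascular area, against 0.131 and 0.215 in the window. The 95% interval of the difference lay wholly between -0.5 and 0.5 for 186 of the 200 in the cortex, 188 in the cap, 190 in the vascular area and 196 in the meristem, compared with 3156 to 4389 transcripts of the window (23% to 32%). Over the mean of the 4 areas it did so for all 200 and for 9665 of the window (70.4%), and there the libraries of a root-tip set are not independent, so these intervals are too narrow. A choice by low spread narrows the intervals of the chosen as well.

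By limma, 0 of the 200 were called with nitrate in the cap (0.907% of all transcripts tested were), 0 with nitrate in the meristem (0.0784%), 0 in cortex (0.208%), 0 in the vascular area (0.415%), 0 over the mean of the 4 areas (2.94%) and 0 for a nitrate effect that differed between areas (0.098%). At an unadjusted p below 0.05 limma had 10, 3, 4, 9, 15 and 1 of the 200 in the same order, and edgeR, which called 0 in all 6 comparisons too, had 11, 3, 4, 8, 15 and 1. The count over the mean of the areas became 3 without KCl replicate 3 of the cap, 1 without nitrate replicate 1 of the meristem and 2 with median-of-ratios scaling. Over all 51044 transcripts tested, these settings called 3469, 1031 and 1475, in place of 1503. With 1 mean per root-tip set the count of the 200 was 0, with 1 at an unadjusted p below 0.05. Of all transcripts, 24 were called in that fit, and 3351 had an unadjusted p below 0.05. In the main limma fit 5125, 2269, 2553, 5384, 9169 and 2162 of all transcripts had an unadjusted p below 0.05, in the order above. By edgeR, 118, 17, 51, 78, 1471 and 6 of all transcripts were called in that order. Those with an unadjusted p below 0.05 by edgeR numbered 5529, 2434, 2412, 4570, 8828 and 1771. The rule used the same libraries, so the counts are no evidence that nitrate leaves these transcripts alone.

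The transcript with the smallest p among those lower with nitrate was pp_43582. It had 29.7, 29.5 and 27.7 CPM in nitrate cap libraries, against 30.6, 30.9 and 34 CPM with KCl. In the meristem there were 29.6, 25 and 24.4 CPM with nitrate, against 34.2, 33.7 and 32.1 CPM with KCl. The cortex had 29.4, 28.3 and 26.9 CPM with nitrate, against 28.4, 31.4 and 28.9 CPM with KCl, and the vascular area 25, 27.4 and 24.8 CPM with nitrate, against 28.5, 29.2 and 29 CPM with KCl. The solutions overlapped in the cortex only, and the difference over the areas was -0.18 ± 0.05 (SE) on the log2 scale. That SE takes the libraries of a root-tip set as independent, and with 1 mean per set it was 0.077. Among those higher with nitrate it was pp_152443, with 43.2 ± 3.96 CPM with nitrate and 39 ± 3.05 CPM with KCl (SD, n = 12 each) and a difference of 0.14 ± 0.06 (SE), or an SE of 0.089 with 1 mean per set. Its solutions overlapped everywhere but in the vascular area.

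The libraries of each solution can stand as unused data for a choice made in the other. The rule applied to the 12 KCl libraries alone chose 200 transcripts with a median SD of 0.134 there and at most 0.158. In the 12 nitrate libraries, which this choice did not use, their median SD was 0.167, with a range of 0.0667 to 0.432, against a median of 0.659 over the 13578 transcripts of the KCl window. The highest nitrate value was less than 2 times the lowest for 190 of the 200, against 2000 of the window. Of the 200, 68 (34% of each list) were also among the first 200 by SD in the nitrate libraries, and 171 among the first 1000.

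In the other direction, the choice in nitrate libraries had a median SD of 0.133 there and 0.181 in the KCl libraries (range 0.068 to 0.89). The median over its window was 0.682. In the KCl libraries 187 of the choice kept within 2 times, against 2005 of the 13772 transcripts of its window. Low spread in one solution thus came with low spread in the other, while the exact order did not carry over. Both solutions were sampled in the same 4 areas, so this bears on steadiness over areas more than on nitrate. Both also carried the deposited scaling, and the split was not repeated under another scaling. Deviations from group means correlated between libraries of the same area and experiment number in the other solution. Over all transcripts their r was -0.0423 to 0.297, with a median of 0.1. The libraries of one solution are therefore unused by the choice but not shown to be independent of it. Of the transcripts chosen on all libraries, 134 were in the KCl choice and 128 in the nitrate choice.

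Root-tip sets left a trace in some of the 200. The largest share belonged to pp_78566, a transcript of 18.5 CPM, in which sets held 60.4% of the spread. With nitrate, experiment 1 gave 15.1, 16.3, 14.4 and 17.4 CPM in cap, meristem, cortex and vascular area, experiment 2 gave 20.2, 19.5, 18.9 and 21.5 CPM, and experiment 3 gave 15.8, 17.1, 16.4 and 20.8 CPM. With KCl, experiment 1 gave 16.6, 17, 17.1 and 17.6 CPM, experiment 2 gave 19.5, 19.2, 21.3 and 20.4 CPM, and experiment 3 gave 21.2, 20.1, 19.5 and 20.5 CPM. Experiment 1 was lowest in all 4 areas with KCl, and experiment 2 highest in all 4 areas with nitrate. Sets were the largest part of the spread in 21 of the 200 (10.5%), against 687 of the window (5%). Over the 200, deviations from the group means correlated between libraries of the same set with r of -0.237 to 0.435 and a median of 0.183 (36 pairs of libraries, 26 of them over 0.1, across transcripts), against a median of 0.487 over all transcripts. Libraries of different sets of a solution reached r of 0.402 over the 200, with a median of -0.0619. What the libraries of a set share, whether plants, day or handling, is not stated in the labels.

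Adjacent IDs recurred in the list, which bears on how many separate genes the 200 stand for. They formed 153 runs of consecutive ID numbers, of which 120 held a single transcript, 24 held 2, 6 held 3 and 3 held 4 or more, up to 6. In all, 80 of the 200 (40%) had a direct neighbour among the 200, which gave 47 adjacent pairs. Of the whole window, with those 80 included, 160 of 13728 (1.17%) had such a neighbour. A direct neighbour anywhere in the window was present for 138 of the 200 (69%) and for 8828 of the window (64.3%). The correlation of adjacent pairs over the whole window was not measured. Adjacent pairs correlated over the 24 libraries with Pearson's r of 0.164 to 0.943 and a median of 0.767, compared with a median of 0.0407 over all 19900 pairs of the 200. The mean levels of a pair were within 2 times of each other in 40 of 47. The steadiest and the second steadiest are such a pair, with r = 0.665 and levels of 36.2 and 52.7 CPM. Neighbours that were in the window but not among the 200 numbered 80, with a median SD of 0.204 and a range of 0.168 to 2.29, and 45 of them were within the first 1000 of the window. Pairs share libraries, depth and scaling, and where IDs are copies or variants of a gene the counting could split or share reads between them. The read counter is not given in the sources used here, so levels of adjacent IDs are uncertain.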

How the data were processed

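RNA of 24 libraries was measured by sequencing amplified cDNA in paired reads of 150 bp. The submitters' processing notes name bcl2fastq and BWA. Versions, read counter, reference transcriptome and scaling method: not given in the sources used here. Values as deposited, named CPM by the authors, are a signal made of read counts divided by a factor per library. Column totals ran from 786966 to 1173830 and were thus not equal, as plain CPM would be. In each column 100% of values were whole multiples of a step of 0.0171 to 0.0247 CPM, within 0.02 reads, and the reads recovered in this way were used for counting error and for edgeR.

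The members, lists and tests were chosen with earlier results of these data known. Transcripts were named by rank and position: SD ranks 1 to 4, 100 and 199 to 202, the extremes of mean level, of the gap between areas, of the lead of each area and of the share of root-tip sets, and the smallest p with nitrate in each direction. Values as log2(CPM + 0.5) were fitted with limma 3.58.1 in R 4.3.3 (8 group means, trend of the variance on the mean, Benjamini-Hochberg adjustment within each contrast) on 51044 transcripts with at least 1 CPM in 3 libraries. The design had foreseen plain CPM and was kept, since both need a log scale. As an alternative, edgeR 4.0.16 was run on recovered reads (TMM, quasi-likelihood) and called 43978 transcripts between areas and 1471 with nitrate over the mean of the areas. The limma fit, the edgeR fit and the ranking by SD were also run on simulated data with known changes. The outcome of these simulations is not given here, so they lend no support to the calls or to the list. Counts with equal column totals in the fit were added after seeing the data. Libraries of a group differed by more than counting error (median SD of 0.276 against 0.0521 over the window). Libraries of the same solution and experiment number were treated as a set because all 36 pairs between areas correlated above 0.1. The same number in the other solution did so in 6 of 12 pairs.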

Additional observations from a re-analysis of the deposited data

How the results depend on the processing

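The choice of the 200 kept 70 with equal totals, 106 with quantile normalization, 54 when ranked by the pooled SD within groups, 112 by the SD of the group means, 128 in nitrate libraries only and 49 without the cap libraries. It kept 134 to 195 under the other alternatives that did not leave out a single library. Members called between areas were 110 with quantile normalization and 126 with equal totals, in place of 65, while over all transcripts 44304, 44533 and 44254 were. Members called in the cap were 89 with median-of-ratios scaling, 96 with quantile normalization and 127 with equal totals, in place of 56. All transcripts had 40404, 40005 and 40530 such calls, in place of 40490. Members called in the meristem were 49 with median-of-ratios scaling and 87 with equal totals, in place of 32. All transcripts had 31408 and 32685, in place of 31803. Members called in the cortex were 12 with equal totals, in place of 20 (20912 of all, in place of 21903). In the vascular area they were 57 with quantile normalization, in place of 22 (31834 of all, in place of 31495). With nitrate over the mean of the areas 2 were called with median-of-ratios scaling, in place of 0 (1475 of all, in place of 1503). Leaving out 1 library gave 173 to 194 transcripts chosen again, 51 to 63 called between areas, and by area 48 to 56 (cap), 15 to 36 (meristem), 9 to 22 (cortex) and 12 to 25 (vascular), and 0 to 3 with nitrate over the mean of the areas. The calls over all transcripts ran from 43639 to 44138, 39562 to 40557, 28654 to 32224, 18867 to 22754, 29470 to 31980 and 1031 to 3469. The libraries behind counts that moved by over 1.5 times are named beside those counts. Calls with nitrate in each area, and for differing nitrate effects, were 0 under all alternatives run. The cause was not tested.

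With the root-tip set as a replicate block, 60 were called between areas, and by area 51 (cap), 30 (meristem), 19 (cortex) and 22 (vascular), and with the experiment number as a replicate block 63, 51, 31, 21 and 21. Over all transcripts the set block called 47011, 42746, 35546, 25884 and 34765 in the same order. The number block called 45267, 41408, 33373, 23493 and 32695, and the fit without a block 44254, 40490, 31803, 21903 and 31495. Calls over all transcripts thus rose with either block, while no count of the 200 moved by over 1.5 times. The nitrate difference of pp_43582 over the areas passed the threshold with median-of-ratios scaling, without KCl replicate 3 of the cap and without nitrate replicate 1 of the meristem, and under no other alternative. The lead of pp_195681 in the cap became 0.066 with equal totals and did not pass there. The SD of pp_86819 became 0.266 with equal totals. No single library was tested as an outlier, since groups held 3.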

Other observations

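Ranking by the noise between replicate libraries gave a list that overlapped in part. Ranked by the pooled SD within the 8 groups, the first 200 of the window had a median SD of 0.0985 within groups, against 0.123 in the transcripts described above, and shared 54 with them. Their median SD over all 24 libraries was 0.239, with a median gap between the highest and the lowest area mean of 0.549 on the log2 scale and up to 1.73. In 24 of them the gap was at least 1. Areas held a median of 81.3% of their spread, against 33.2%. Each list is low in the measure that chose it, so these differences are set by the choice.

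The longest run of consecutive IDs went from pp_211598 to pp_211603 and was singled out after its values had been seen. Its 6 transcripts had means of 10.5 to 17.2 CPM and SDs of 0.13 to 0.166. Their pairwise r over 24 libraries was 0.607 to 0.808, and their sum was 63.9 CPM in the lowest and 91.2 CPM in the highest library. The run from pp_195681 to pp_195683, whose first transcript had the largest lead of the cap, had r of 0.903 to 0.921, and the run from pp_86818 to pp_86820 had r of 0.859 to 0.902. Whether these are copies, variants or separate genes was not tested.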
